A study of Mus musculus with 6 samples.

Results

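The Myc, Max and Mxd family is described here as the 10 genes Myc, Mycn, Mycl, Max, Mxd1, Mxd3, Mxd4, Mnt, Mga and Mlx, chosen by gene symbol from the 52636 genes of the count table. RNA was sequenced from embryoid bodies (EBs), spheres of differentiating cells grown from the mouse embryonic stem cell line E14. There were 3 WT samples from the parental line and 3 Tnfaip2-/- samples from 1 clone of the same line, in which CRISPR-Cas9 had introduced a premature stop codon into exon 2 of Tnfaip2. Stem cells of both genotypes were kept in medium with leukemia inhibitory factor (LIF), formed EBs in hanging drops for 3 days and were then plated on gelatin in differentiation medium for another 3 days before harvest. Each genotype was thus represented by 1 line, so that the spread among replicates is that of cultures, with no independent clones to compare. Total counts per sample ranged from 21765931 to 23804489.

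MYC, MYCN and MYCL are transcription factors that bind DNA as dimers with MAX, with a preference for the E-box CACGTG, and activate genes for growth, metabolism and cell cycle entry. The MXD proteins, MNT and MGA also pair with MAX, bind the same sites and repress transcription, the MXD proteins and MNT through SIN3 and histone deacetylases and MGA within a variant Polycomb complex. MLX is a MAX-like partner of the glucose-responsive factors MLXIP and MLXIPL, and it also pairs with MXD1, MXD4 and MNT. In mouse embryonic stem cells, Myc is known as a target of LIF signaling and Mycn as the Myc gene widely expressed in the early embryo.

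Tnfaip2 itself was barely transcribed in either genotype, with counts of 7, 4 and 7 for WT and of 0, 2 and 2 for Tnfaip2-/- EBs. Over the summed counts this was 4.39-fold lower in Tnfaip2-/- EBs, with an exact 95% counting interval of 1.44 to 17.8. The counts of the edited gene followed the genotype labels, although a stop codon need not remove a transcript.

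Of the 10 family members, all passed the filter on low counts and 6 were called by edgeR's quasi-likelihood test (adjusted p under 0.05), 5 lower and 1 higher in Tnfaip2-/- EBs. Differences between the genotypes were widespread: 67.7% of the 17849 genes tested were called, 34.0% higher and 33.7% lower. These shares are the background for each list below. The share of members called was therefore close to that of all genes, and what the data show about the family lies in which members moved and by how much. In the lower direction stood all 3 Myc genes, Max and Mxd3, and in the higher direction Mxd4. The same 5 and 1 genes had groups that did not overlap, against 34.5% of all genes tested in the lower and 34.9% in the higher direction. A fall of at least 2-fold was called for Myc and Mycl among the members and for 4.51% of all genes tested. Tested against a fold of 1.5, 1615 of the 17849 genes were called higher and 1183 lower. These are the background for counts under that test below. The median log2 change of the members was -0.22, beside 0.00 over all genes tested.

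**Figure D1:**
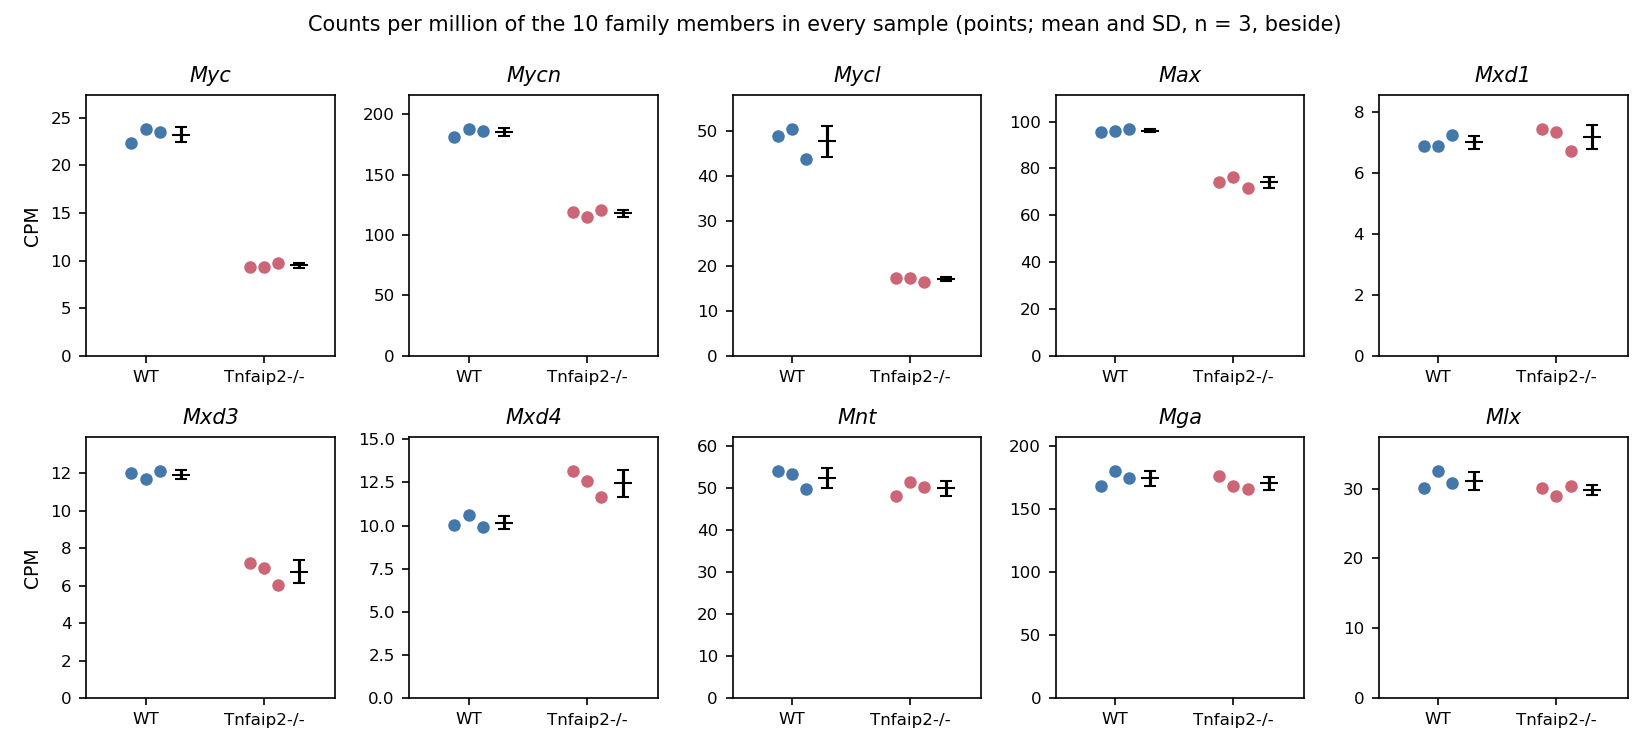
CPM, counts scaled by library size with TMM factors, which correct for composition (y axis from 0, a scale of its own in each panel), of the 10 family members in 3 WT and 3 Tnfaip2-/- EB samples, with 1 point a sample and the mean and SD beside the points. The groups stand apart for Myc, Mycn, Mycl, Max, Mxd3 and Mxd4 and overlap for Mxd1, Mnt, Mga and Mlx.

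Myc (ENSMUSG00000022346, chromosome 15, 61985391 to 61990374 in GRCm38) had 22.3, 23.8 and 23.5 CPM in the WT samples and 9.37, 9.31 and 9.78 CPM in the Tnfaip2-/- samples. The 3 Tnfaip2-/- samples lay close together and far below the lowest WT sample. The fitted difference was 2.45-fold, a log2 change (Tnfaip2-/- over WT) of -1.29 (SE, the standard error of the fit, 0.0681, adjusted p = 1.25e-21, edgeR's quasi-likelihood test). Mycl (ENSMUSG00000028654, chromosome 4, 122995652 to 123002485), the family's MYCL gene, fell even more, from 49.0, 50.5 and 43.9 CPM in WT EBs to 17.3, 17.4 and 16.5 CPM in Tnfaip2-/- EBs. Its log2 change was -1.49 (SE 0.0555, adjusted p = 2.29e-27). Mycn (ENSMUSG00000037169, chromosome 12, 12936093 to 12941914) had the smallest fall of the 3 Myc genes. It had 181, 188 and 186 CPM in the WT samples and 119, 115 and 121 CPM in the Tnfaip2-/- samples, a log2 change of -0.65 (SE 0.0296, adjusted p = 4.81e-24). In bulk samples, fewer cells that express a gene and less RNA of it per cell cannot be told apart.

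Max (ENSMUSG00000059436, chromosome 12, 76937269 to 76962201), the shared partner of the Myc and Mxd proteins, had 95.7, 96.1 and 96.8 CPM in WT EBs and 74.2, 76.4 and 71.6 CPM in Tnfaip2-/- EBs. The WT samples lay within about 1 CPM of each other and all Tnfaip2-/- samples below them. Its log2 change was -0.38 (SE 0.0344, adjusted p = 2.17e-13), a smaller change than that of any Myc gene. When the test was made against a fold of 1.5, Max was no longer called (adjusted p = 1, against at most 4.59e-11 in the other alternatives), whereas Myc, Mycn, Mycl and Mxd3 were.

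The 3 Mxd genes went in different directions. Mxd3 (ENSMUSG00000021485, chromosome 13, 55325168 to 55329823), a member that unlike the other Mxd genes is typically expressed in proliferating progenitors, had 12, 11.7 and 12.1 CPM in WT EBs and 7.22, 6.94 and 6.04 CPM in Tnfaip2-/- EBs. All Tnfaip2-/- samples were lower, with a log2 change of -0.83 (SE 0.0866, adjusted p = 1.34e-11). Mxd4 (ENSMUSG00000037235, chromosome 5, 34173883 to 34187720), an antagonist of MYC that is usually found in differentiating cells, was the only member that rose. It had 10.0, 10.6 and 9.92 CPM in the WT samples and 13.2, 12.6 and 11.6 CPM in the Tnfaip2-/- samples, a log2 change of 0.29 (SE 0.0778, adjusted p = 0.000984). This rise was not called against a fold of 1.5 (adjusted p = 1, against 0.00033 to 0.0293 in the other alternatives). Mxd1, another antagonist, had between 6.88 and 7.24 CPM in WT EBs and between 6.72 and 7.44 CPM in Tnfaip2-/- EBs, so that its groups overlapped (log2 change 0.03, SE 0.0951, adjusted p = 0.762).

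Mnt, Mga and Mlx were not called. Mnt, the broadly expressed repressor partner of MAX, had 54.1, 53.5 and 49.8 CPM in WT EBs and 48.1, 51.5 and 50.2 CPM in Tnfaip2-/- EBs. Its log2 change was -0.07 (SE 0.0423, adjusted p = 0.137). Without WT replicate 3, the lowest WT sample, it became -0.12 with an adjusted p of 0.0223, and over all alternatives other than the fold of 1.5 the adjusted p ran up to 0.389. Mga, which encodes a large protein with both a MAX-pairing domain and a T-box, had 168, 180 and 175 CPM in WT EBs and 176, 168 and 166 CPM in Tnfaip2-/- EBs, a log2 change of -0.03 (SE 0.0298, adjusted p = 0.303). Mlx had 30.0, 32.5 and 30.7 CPM in WT EBs and 30.1, 28.9 and 30.3 CPM in Tnfaip2-/- EBs, a log2 change of -0.06 (SE 0.0504, adjusted p = 0.287). Of the exon bases of Mlx, 19.3% overlap exons of Psmc3ip on the opposite strand. The library kit does not mark strand and Psmc3ip itself had lower counts in Tnfaip2-/- EBs (411, 401 and 438 against 628, 591 and 615), so that reads of the shared stretch cannot be told apart. Such reads may also have been left out of both genes in counting, which was not tested. For Mxd3, 4.43% of the exon bases overlap Prelid1 in the same way. Prelid1 had 5171, 5121 and 5380 counts in WT and 3923, 4026 and 4094 counts in Tnfaip2-/- EBs, far above those of Mxd3 (272, 262 and 285 against 164, 152 and 134), and its part in the fall of Mxd3 was not tested.

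**Figure D2:**
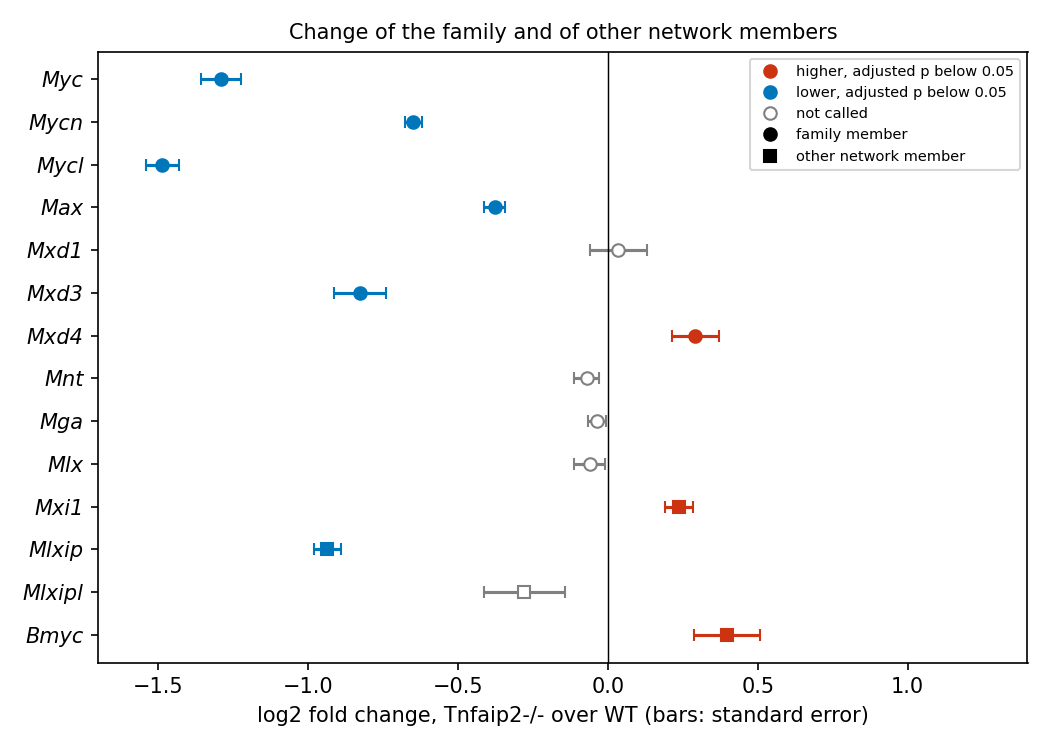
Log2 change of Tnfaip2-/- over WT EBs (x axis) for the 10 family members (circles) and 4 other network members (squares), with the standard error as bars and open symbols for genes not called. Mycl, Myc, Mlxip, Mxd3, Mycn and Max lie below 0 and Mxd4, Mxi1 and Bmyc above it.

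Levels of different genes were compared as CPM per kb of exon. In both genotypes Mycn was highest, followed by Max and Mlx. In WT EBs, Mycn had 56.1 ± 1.03, Max 26.7 ± 0.165 and Mlx 15.6 ± 0.636 CPM per kb (mean ± SD, n = 3). Below them, Mycl (11.8 ± 0.853), Mga (11.4 ± 0.388) and Mnt (11.3 ± 0.501) overlapped and had no order beyond their spread. Myc followed with 8.55 ± 0.29, Mxd3 with 5.04 ± 0.0931, Mxd4 with 1.2 ± 0.0424 and Mxd1 with 0.99 ± 0.029 CPM per kb. In Tnfaip2-/- EBs, Mycn had 35.8 ± 0.934 and Max 20.6 ± 0.671 CPM per kb. Mycl stood there at 4.22 ± 0.108, below Mga (11.1 ± 0.359) and Mnt (10.8 ± 0.371), which overlapped each other. The order of the remaining members was the same as in WT EBs, and the order by the longest transcript in place of all exons was the same in both genotypes.

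The summed level of the 3 Myc genes was 75.3, 78.2 and 76.0 CPM per kb in the WT samples and 43.8, 42.5 and 44.3 CPM per kb in the Tnfaip2-/- samples. The sum in Tnfaip2-/- EBs was thus 0.569 of that in WT EBs, with no overlap between the groups. Mycn made up most of it, with a share of 73.4% ± 0.808 in WT and 82.3% ± 0.405 in Tnfaip2-/- EBs. The share of Myc went from 11.2% ± 0.245 to 8.03% ± 0.126 and that of Mycl from 15.5% ± 1 to 9.71% ± 0.432. The ratio of the summed Myc genes to Max was 2.86 ± 0.0587 in WT and 2.12 ± 0.113 in Tnfaip2-/- EBs, and 1.87 and 1.39 with the longest transcript as gene length. The partners of MAX that repress among the 10, Mxd1, Mxd3, Mxd4, Mnt and Mga, together had 29.9 ± 0.49 CPM per kb in WT and 27.2 ± 0.576 CPM per kb in Tnfaip2-/- EBs, 0.909 of the WT level. The Mxd gene Mxi1, outside the 10, was not part of this sum. Its own level was 5.54 CPM per kb in WT and 6.52 CPM per kb in Tnfaip2-/- EBs. These sums and shares are descriptions of RNA levels and were not tested.

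**Figure D3:**
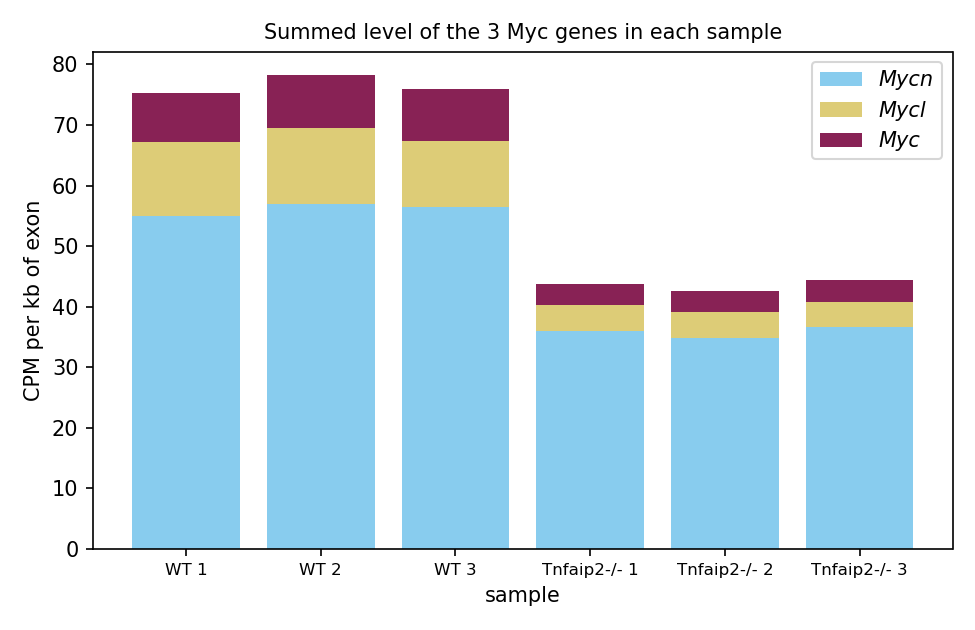
Stacked levels of Mycn, Mycl and Myc in CPM per kb of exon (y axis from 0) in each of the 6 samples (x axis). The sums are between 75.3 and 78.2 in the WT samples and between 42.5 and 44.3 in the Tnfaip2-/- samples, and Mycn takes the largest share in every sample.

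Among 5 further members of the network, 4 were tested and 1 was called lower and 2 higher. Mlxip, which encodes the glucose sensor MondoA, had 56.1, 58.1 and 53.2 CPM in WT EBs and 29.5, 29.5 and 28.4 CPM in Tnfaip2-/- EBs, a log2 change of -0.94 (SE 0.0458, adjusted p = 7.55e-23). All its Tnfaip2-/- samples were lower. Its relative Mlxipl, which encodes ChREBP, had 3.93, 4.24 and 3.62 CPM against 3.39, 3.52 and 2.80 CPM. Its groups did not overlap, but the log2 change of -0.28 was not called (adjusted p = 0.0647). Without WT replicate 3 it was called at -0.35 (adjusted p = 0.0424), and over the other alternatives the adjusted p reached 0.255. Mxi1, an Mxd gene outside the 10, rose from 37.8, 36.8 and 38.8 CPM to 46.6, 45.3 and 41.6 CPM (log2 change 0.24, adjusted p = 1.74e-05). Bmyc, a short Myc relative without the DNA-binding part, had 4.77, 4.69 and 6.04 CPM in WT and 7.22, 6.07 and 7.17 CPM in Tnfaip2-/- EBs (log2 change 0.40, adjusted p = 0.00152). An antisense gene covers 62.8% of the exon bases of Bmyc and had at most 2 counts in any sample, beside 105 to 164 counts for Bmyc. If reads of the shared stretch were left out of both genes, these low counts do not show a silent antisense gene. The level given for Bmyc would then be too low. Neither Mxi1 nor Bmyc was called against a fold of 1.5. The retrogene Mycs had 0, 1 and 0 counts in WT and 1, 1 and 0 counts in Tnfaip2-/- EBs, too few for a fold.

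The promoters of the family were searched for the E-box CACGTG, which reads the same on both strands. The RefSeq promoters of GRCm38.p6 span 250 bases before to 50 bases after a start site, and 9 members had an entry. CACGTG was found in 4 of these 9 promoters (44.4%), those of Max, Mxd4, Mnt and Mlx, beside 7.15% of all 32851 promoters of the same length. The promoters of Mycn, Mycl, Mxd1, Mxd3 and Mga did not hold these letters in this window. Of the 4 genes, Max fell, Mxd4 rose and Mnt and Mlx were not called. A match is a description of the letters and not a bound site. The windows are shown for the members that hold the E-box, 5′ to 3′ on the strand of the gene, with the E-box in capitals. They lie at chr12:76962234-76962263 on the minus strand across the start site, chr5:34187902-34187951 on the minus strand, chr11:74830779-74830828 on the plus strand and chr11:101087228-101087276 on the plus strand, the latter 3 upstream of the gene and outside annotated exons. The first base of the match is at -3 for Max, -219 for Mxd4, -123 for Mnt and -40 for Mlx relative to the start site.
Max: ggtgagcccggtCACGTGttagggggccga
Mxd4: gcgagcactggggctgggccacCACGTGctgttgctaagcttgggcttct
Mnt: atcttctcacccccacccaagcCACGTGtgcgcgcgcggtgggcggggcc
Mlx: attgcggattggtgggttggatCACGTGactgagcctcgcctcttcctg

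Of 26 genes of metabolism known as MYC targets, 16 were called lower in Tnfaip2-/- EBs and 8 higher, and their median log2 change was -0.33. Their summed level went the other way, from 15265, 15198 and 15234 CPM in the WT samples to 16487, 16604 and 16600 CPM in the Tnfaip2-/- samples, with Pkm as the most abundant gene. The largest fall was that of Prps2, a MYC-regulated enzyme at the entry of nucleotide synthesis, from 133 ± 3.19 to 50.6 ± 2.2 CPM (log2 change -1.39, adjusted p = 1.17e-33). Shmt2, the mitochondrial serine hydroxymethyltransferase, followed with a log2 change of -0.80 (adjusted p = 2.07e-27) and the glutamine transporter Slc1a5 with -0.78 (adjusted p = 1.9e-20). In the other direction, the glucose transporter Slc2a1 rose 1.91-fold (log2 change 0.93, adjusted p = 4.76e-35), Impdh1, an enzyme of guanine nucleotide synthesis, by 0.80 and the transferrin receptor Tfrc by 0.46 on the log2 scale. When tested against a fold of 1.5, 6 of the list were called lower and 2 higher, Tfrc not among them. Of all 17849 genes tested, 1183 were called lower and 1615 higher against this fold.

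Split by pathway, a grouping made after the values were seen, the list was not uniform. All 4 genes that handle folate-bound carbon units (Shmt1, Shmt2, Mthfd1 and Mthfd2) were called lower, with a median log2 change of -0.53. Both genes of polyamine synthesis fell, Odc1 by 0.47 and Srm by 0.74 on the log2 scale. In nucleotide synthesis, Prps2, Paics, Ppat, Cad and Gart were lower while Impdh1 and Impdh2 were higher. Of the 5 genes for glucose uptake, glycolysis and lactate transport, 4 were higher: Slc2a1, Ldha (log2 change 0.30), Pkm (0.19) and Hk2 (0.06). The rise of Hk2 (adjusted p = 0.0417) was not called when any 1 of the 6 replicates was left out (0.056 to 0.343), with DESeq2 (0.168), with RLE scaling (0.0523) or without the filter on low counts (0.222), in a range of 0.00386 to 0.343 over its alternatives. The fifth, the lactate transporter Slc16a1, fell by 0.69 on the log2 scale. The amino acid carriers Slc1a5, Slc7a5 and Slc3a2 were lower. The chaperonin genes Hspd1 and Hspe1 were not called, Hspe1 with a log2 change of -0.05 (adjusted p = 0.152) that was called without WT replicate 2 (0.00436) and reached 0.573 in other alternatives. Pseudogenes and other genes share 41.6% of the 51-base windows of Hspd1, 39.1% of those of Impdh2, 25.4% in Pkm, 24% in Odc1, 22.4% in Hspe1 and 15.4% in Gart.

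**Figure D4:**
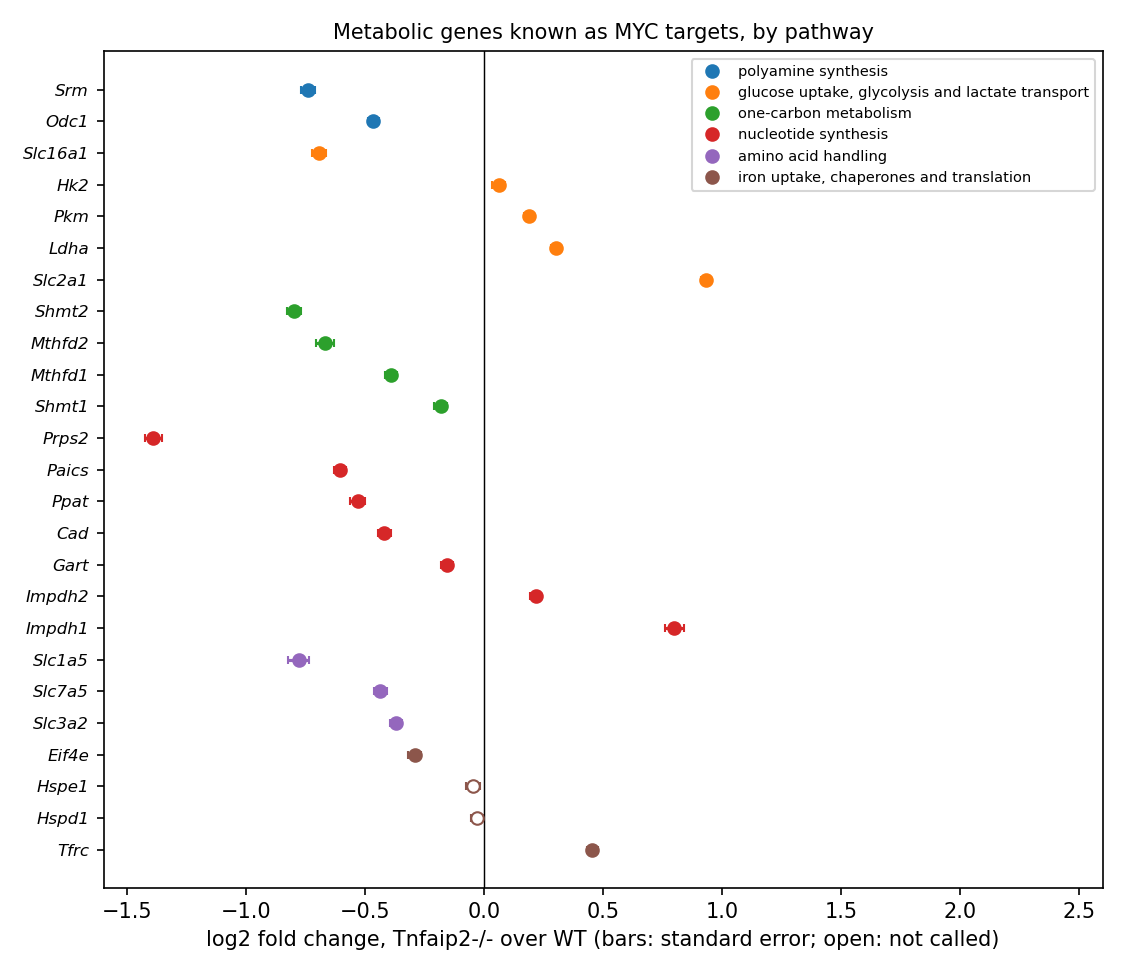
Log2 change of Tnfaip2-/- over WT EBs (x axis) for the metabolic genes known as MYC targets, 1 left out, colored by pathway, with the standard error as bars and open circles for genes not called. Genes of polyamine synthesis and folate-bound carbon units lie below 0, and 4 of 5 genes of the glucose group lie above it.

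In the list of 13 cell cycle genes known as MYC targets, 11 were called lower and 1 higher, with a median log2 change of -0.21. Ccnd2, which encodes cyclin D2, fell most, from counts of 629, 646 and 673 in WT to 88, 71 and 76 in Tnfaip2-/- EBs (log2 change -3.01, SE 0.0822, adjusted p = 9.38e-33). Its kinase partner Cdk4 fell from 678 ± 17.1 to 324 ± 6.05 CPM (log2 change -1.07, adjusted p = 2.68e-35) and Ccnd1, which encodes cyclin D1, from 131 ± 4.08 to 67.1 ± 0.576 CPM (log2 change -0.97, adjusted p = 1.41e-28). Of the 51-base windows of these transcripts, 17% in Cdk4 and 21.5% in Ccnd1 also occur in transcripts of other genes. Whether they are unique in the genome was not tested. Tert, the catalytic subunit of telomerase, was the only gene of the list that rose (log2 change 0.42, adjusted p = 3.53e-06). Against a fold of 1.5, 4 of the list were called lower, and Tert was not called.

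Of 10 general proliferation genes, 5 were called higher and 4 lower, with a median log2 change of 0.11. Top2a, the topoisomerase of dividing cells, rose by 0.52 and Mki67, which encodes the antigen Ki-67, by 0.36 on the log2 scale. The cyclin A gene Ccna2 fell by 0.36 and Mcm2, a subunit of the replicative helicase, by 0.33. The summed level of the 10 genes was 3410, 3457 and 3441 CPM in the WT samples and 3702, 3634 and 3684 CPM in the Tnfaip2-/- samples. None of the 10 genes was called against a fold of 1.5.

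CACGTG was found in 2 of 12 promoters of the cell cycle list (16.7%), and those of Ccnd1 and Ccnd2 were not analysed here. The promoter of Cdk4 held 4 copies of CACGTG, with first bases at -172, -118, -98 and -11. Among the metabolic genes, 6 of 28 promoters (21.4%) held the E-box, Slc16a1 and Ldha among them. The windows shown are those of Cdk4 and Slc16a1, which fell, and of Ldha, which rose, chosen after their values were seen. They lie at chr10:127063341-127063533, chr3:104638442-104638491 and chr7:46845637-46845783, all on the plus strand, upstream of the RefSeq start site and outside annotated exons, the window of Ldha within an intron of a longer Ldha transcript. Capitals mark CACGTG and TCCCGC, the core letters of E2F sites, searched on both strands, which follow the E-box directly in Slc16a1 and at a short distance in Ldha. TCCCGC was found in 20.0% of all promoters and in 60.7% of the metabolic ones.
Cdk4: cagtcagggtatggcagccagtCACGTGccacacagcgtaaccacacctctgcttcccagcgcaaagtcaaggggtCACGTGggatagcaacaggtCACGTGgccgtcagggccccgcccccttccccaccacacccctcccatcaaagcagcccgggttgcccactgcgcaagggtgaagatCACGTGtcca
Slc16a1: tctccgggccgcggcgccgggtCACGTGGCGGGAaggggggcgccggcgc
Ldha: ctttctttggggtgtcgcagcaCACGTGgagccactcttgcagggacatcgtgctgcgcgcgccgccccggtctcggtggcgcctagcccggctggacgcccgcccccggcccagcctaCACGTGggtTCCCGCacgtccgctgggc

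Of 27 ribosome biogenesis genes known as MYC targets, 18 were called lower and 3 higher, but the changes were small, with a median log2 change of -0.15. Nop16, a nucleolar protein of the large subunit pathway, fell by 0.55, Gar1, a subunit of the pseudouridylation complex, by 0.47 and Tcof1, a cofactor of ribosomal RNA transcription, by 0.45 on the log2 scale (adjusted p = 6.12e-15, 7.78e-15 and 3.08e-18). The risers were Npm1, the nucleolar chaperone nucleophosmin, with 0.17, Nop58 with 0.13 and Pes1 with 0.09. Pseudogenes and other genes share 24.1% of the 51-base windows of Npm1 and 22.9% of those of Pes1. The list's summed level was nearly equal, 9446 ± 40.2 CPM in WT and 9448 ± 44.7 CPM in Tnfaip2-/- EBs, with Npm1 as its most abundant gene. None of the 27 genes was called against a fold of 1.5.

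Genes known to be repressed by MYC, many of them cell cycle inhibitors, changed in both directions. All 9 were called, 6 higher and 3 lower, with a median log2 change of 0.93. Ndrg1, named for its repression by MYCN, had counts of 1652, 1580 and 1680 in WT and of 6238, 6195 and 6333 in Tnfaip2-/- EBs. This was a 3.92-fold rise (log2 change 1.97, SE 0.0301, adjusted p = 5.69e-43), with all Tnfaip2-/- samples far above the WT samples. Clu, which encodes the secreted chaperone clusterin, rose 3.65-fold. The cyclin-dependent kinase inhibitor Cdkn2b had 6, 6 and 12 counts in WT EBs and 31, 33 and 19 counts in Tnfaip2-/- EBs. Its log2 change was 1.81 (adjusted p = 2.39e-06) at this low level. In the opposite direction, Thbs1, which encodes thrombospondin, went from 32, 34 and 24 counts to 3, 5 and 2 counts (log2 change -3.09, adjusted p = 5.57e-10). Ndrg2 fell by 0.52 and Cdkn1b, which encodes the inhibitor p27, by 0.35 on the log2 scale.

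Of 13 coactivators, subunits of chromatin complexes that MYC is known to recruit or bind, 10 were called lower and 2 higher, with a median log2 change of -0.18. The largest falls were those of Actl6a (-0.66), Smarcb1 (-0.59) and the acetyltransferase Kat5 (-0.40). Paf1, a subunit of the elongation complex of that name, rose by 0.32 on the log2 scale, and Ruvbl2 by 0.08. Ruvbl2 lost its call without Tnfaip2-/- replicate 2 (adjusted p = 0.0683), without Tnfaip2-/- replicate 3 (0.0766) and without the filter on low counts (0.0572), within a range of 0.000337 to 0.0766 over its alternatives. Against a fold of 1.5, only 1 coactivator was called, lower.

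Of 11 corepressors and other partners of the network in repression, 6 were called lower and 3 higher, and the median log2 change was -0.08. Sin3b, one of the paired SIN3 scaffolds that the MXD proteins bind, rose from 131 ± 2.87 to 209 ± 4.73 CPM (log2 change 0.68, adjusted p = 3.31e-25), while Sin3a was not called (log2 change 0.01, adjusted p = 0.67) and lay on either side of 0 over the alternatives. The deacetylase gene Hdac2 fell by 0.58, Arid4a by 0.23 and the nuclear receptor corepressor gene Ncor1 by 0.18 on the log2 scale, and Arid4b rose by 0.34. With scaling by library size alone, 3 in place of 6 of the list were called lower. Against a fold of 1.5 only Sin3b was called.

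Proteins that control the stability or activity of MYC were encoded by 14 genes, of which 5 were called higher and 4 lower, a share close to the 67.7% called over all genes tested, with a median log2 change of 0.05. Pim1, a kinase that phosphorylates MYC, rose by 0.75 (adjusted p = 2.16e-19), Trpc4ap, a substrate receptor of a ubiquitin ligase for MYC, by 0.42 and the kinase Aurka, known to stabilize MYCN, by 0.23 on the log2 scale. The ubiquitin ligase subunit Skp2 fell by 0.35, the deubiquitinase Usp28 by 0.20 and the kinase Gsk3b by 0.13. Fbxw7, the ligase subunit that Usp28 counteracts, was not called (log2 change 0.00, adjusted p = 0.992) and lay between -0.07 and 0.08 over the alternatives. Against a fold of 1.5 only Pim1 was called. RNA levels say nothing of the amounts of these proteins or of MYC.

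Of 9 partners of MGA in its Polycomb complex, 6 were called lower and 2 higher, with a median log2 change of -0.17. The ubiquitin ligase gene Ring1 fell by 0.63, the repressor gene E2f6 by 0.47 and Tfdp1, which encodes the dimerization partner of E2F proteins, by 0.33 on the log2 scale. A pseudogene shares 16.6% of the 51-base windows of Tfdp1. Yaf2 rose by 0.23 and the heterochromatin protein gene Cbx3 by 0.14. None was called against a fold of 1.5.

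Of 12 germline genes that this complex is known to repress in embryonic stem cells, 9 were called higher and 2 lower, beside 34.0% and 33.7% of all genes tested. Their median log2 change was 0.81. Some were already transcribed in WT EBs, such as Stag3 with 59.0 ± 1.74 and Ddx4 with 18.3 ± 0.338 CPM. The list summed to 137, 136 and 135 CPM in the WT samples and 199, 193 and 196 CPM in the Tnfaip2-/- samples, with Stag3 as the most abundant gene. Taf7l, a germ cell relative of a basal transcription factor, had 19, 29 and 28 counts in WT EBs and 129, 106 and 103 counts in Tnfaip2-/- EBs, a log2 change of 2.18 (SE 0.168, adjusted p = 7.63e-16). Dazl, which encodes an RNA-binding protein of germ cells, rose from 227, 200 and 217 to 753, 650 and 693 counts (log2 change 1.74, adjusted p = 4.97e-27). For both genes every Tnfaip2-/- sample was higher than every WT sample. Tex101 reached 25, 28 and 21 counts from 3, 3 and 10 counts (log2 change 2.22, adjusted p = 4.52e-07), and without WT replicate 3, the sample with 10 counts, its log2 change was 2.99 in a range of 1.94 to 2.99 over the alternatives. Tdrkh fell by 0.52 and the meiotic gene Sycp3 by 0.45 on the log2 scale. Other genes share 34.6% of the 51-base windows of Tdrkh and 42.8% of those of Sycp3. Against a fold of 1.5, 6 of the 9 rises and neither of the falls were called, beside 1615 higher and 1183 lower of all 17849 genes tested.

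The E-box was common in the promoters of these germline genes. CACGTG was found in 10 of their 14 promoters (71.4%, 8 of 12 genes), beside 7.15% of all promoters. TCCCGC, the core letters of E2F6 sites, was found in 8 of 14 (57.1%, 7 of 12 genes), beside 20.0%. Hormad1 and Stk31 each had 2 overlapping promoters, so that the same letters were counted in both. TCCCGC was not particular to this list, with 66.7% in the cell cycle, 60.7% in the metabolic and 55.6% in the proliferation promoters. The other lists had lower shares, down to 0.00% in the MLX targets. Both motifs stood in 7 of the 14 promoters (6 of 12 genes) and in 1.99% of all promoters. The genes with an E-box were Mael, Slc25a31, Hormad1, Stag3, Stk31, Sycp3, Ddx4 and Taf7l, of which 6 were called higher, Sycp3 lower and Stag3 not called. Dazl and Tex101 were higher without CACGTG in this window. The windows of 5 of these genes, chosen after their values were seen, show the E-box in capitals: chr3:95559598-95559676, chr6:49395462-49395511 and chr3:40708756-40708805 on the plus strand, chrX:134476512-134476561 on the minus strand and chr10:88459501-88459568 on the plus strand. They lie upstream of the RefSeq start sites and outside annotated exons, that of Sycp3 within an intron of Chpt1. Hormad1 rose by 1.67, Stk31 by 0.96 and Slc25a31 by 0.70 on the log2 scale, Slc25a31 with an adjusted p of 0.349 against a fold of 1.5. Hormad1 and Sycp3 hold the E-box at 2 places, and 22.3% of the 51-base windows of Hormad1 also occur in other genes.
Hormad1: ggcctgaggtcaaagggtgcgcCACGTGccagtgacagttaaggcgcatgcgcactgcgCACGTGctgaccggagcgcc
Stk31: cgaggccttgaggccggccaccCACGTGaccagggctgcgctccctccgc
Slc25a31: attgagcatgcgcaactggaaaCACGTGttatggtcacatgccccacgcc
Taf7l: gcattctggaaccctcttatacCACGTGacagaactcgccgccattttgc
Sycp3: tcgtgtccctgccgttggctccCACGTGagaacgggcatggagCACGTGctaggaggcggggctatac

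Of 4 genes that MLX with MLXIP or MLXIPL is known to activate, 3 were called higher and none lower, with a median log2 change of 0.29. Txnip, an inhibitor of glucose uptake, rose by 0.30 (adjusted p = 1.43e-06) and Klf10 by 0.28 on the log2 scale (adjusted p = 1.72e-09). These rises stood beside the fall of Mlxip. For Txnip, 15.6% of the 51-base windows also occur in another gene. None of the 4 was called against a fold of 1.5.

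**Figure D5:**
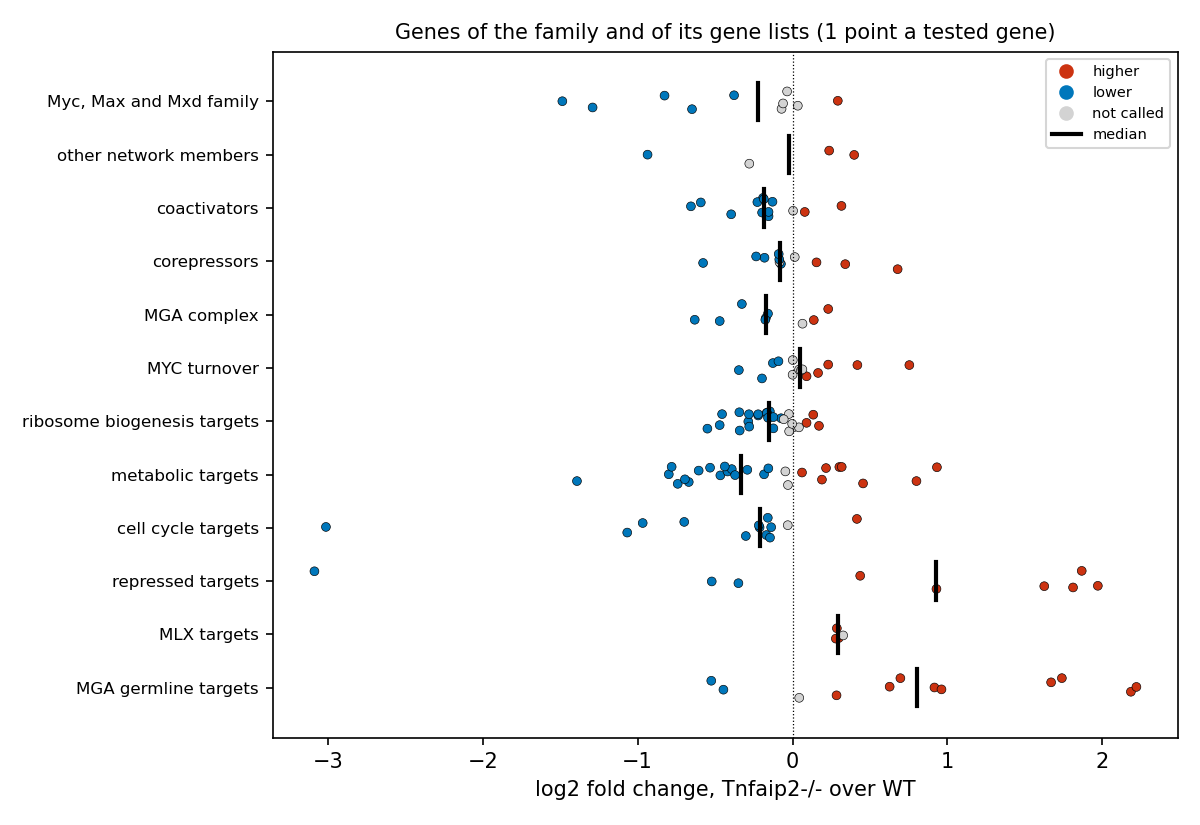
Log2 change of Tnfaip2-/- over WT EBs (x axis) for every tested gene of the family and of its gene lists, with 1 point a gene, colored by call, and a black line at the median of each list. Medians run from -0.33 in the metabolic targets to 0.93 in the repressed targets, and genes on both sides of 0 occur in every list except the MLX targets.

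Markers of cell state moved with the genotypes as well, and their part in the differences of the family was not tested. All 8 pluripotency markers were called, 3 higher and 5 lower. Klf4, with MYC a reprogramming factor, fell most (log2 change -1.49, adjusted p = 6.81e-29), beside Pou5f1 (-0.86), Dppa5a (-0.69), Esrrb (-0.48) and Tdgf1 (-0.17). Zfp42 rose by 0.90, Nanog by 0.26 and Sox2 by 0.23 on the log2 scale. Other genes and pseudogenes share 37.8% of the 51-base windows of Dppa5a. The summed level of the 8 markers was 3211, 3168 and 3258 CPM in the WT samples and 2672, 2657 and 2633 CPM in the Tnfaip2-/- samples, and Dppa5a was the most abundant.

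All 5 tested mesoderm markers of 6 were called lower. T, which encodes brachyury, had 774, 732 and 866 counts in WT EBs and 5, 3 and 1 counts in Tnfaip2-/- EBs. Mixl1 had 174, 155 and 170 against 17, 4 and 15 counts. Mesp1 had 32, 26 and 16 against 0, 2 and 2 counts, 18-fold lower over the summed counts with an exact 95% counting interval of 6.75 to 67.9. Msgn1 was at 0 in all Tnfaip2-/- samples against 9, 8 and 3 counts, at least 6.5-fold lower when 3 counts are set as the floor over the group. Eomes changed less (log2 change -0.62), and Tbx6 (-0.51, adjusted p = 0.0368) lost its call with DESeq2 (adjusted p = 0.196) and without WT replicate 1 (0.194), WT replicate 3 (0.107), Tnfaip2-/- replicate 1 (0.0874) or Tnfaip2-/- replicate 2 (0.106), in a range from 0.00556 to 0.196. The list summed to 74.2, 72.3 and 73.2 CPM in the WT samples and 20.8, 18.3 and 22 CPM in the Tnfaip2-/- samples, with T as its most abundant gene in WT EBs.

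Of 6 endoderm markers, 3 were called lower and 1 higher. Their sum was 23.4, 25.1 and 24.3 CPM in WT and 18.3, 19.4 and 20.7 CPM in Tnfaip2-/- EBs, with Gata4 as the most abundant gene. Sox17 was the gene that rose (log2 change 0.45, adjusted p = 0.0116), and it lost its call with DESeq2 (0.116), without WT replicate 3 (0.18) and without Tnfaip2-/- replicate 3 (0.111), in a range of 0.00443 to 0.18. Other transcripts share 15% of its 51-base windows. Afp fell from 21, 16 and 25 to 1, 0 and 2 counts. Of 5 neural markers, 4 were called lower and 1 higher, with sums of 174, 176 and 164 CPM against 131, 131 and 134 CPM and Tubb3 as the most abundant gene. Tubb3 was the gene that rose (log2 change 0.37, adjusted p = 2.64e-12), against the direction of the sum. Sox1 fell by 1.61 on the log2 scale and Zic1 from 111, 94 and 107 to 2, 0 and 2 counts. Among 6 fibroblast markers, 5 were tested, with 3 lower and none higher, sums of 14.3, 16.2 and 14.1 CPM against 10.7, 10.5 and 10.8 CPM, Pdgfra as the most abundant gene and Postn at 0 in all Tnfaip2-/- samples against 2, 2 and 4 counts in WT EBs. Of 5 trophoblast markers, 3 were tested, with 2 higher and 1 lower. Tfap2c, also a regulator of early germ cells, made up most of their sum of 25.4, 22.8 and 24.1 CPM in WT and 174, 171 and 173 CPM in Tnfaip2-/- EBs (log2 change 2.98, adjusted p = 2.39e-45). Cdx2 fell from 42, 37 and 28 to 1, 2 and 0 counts. Measures of RNA quality also moved with the genotype. The mitochondrial share of counts was 2.52% to 2.56% in WT and 2.20% to 2.28% in Tnfaip2-/- EBs, and 24630 to 24685 against 25126 to 25223 genes were detected. Their part in the differences of the family was not tested.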

How the data were processed

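Gene counts were analysed as deposited. The authors sequenced TruSeq RNA v2 libraries as single-end reads, aligned them to GRCm38 with TopHat2 2.1.0 and obtained counts of uniquely mapped reads per Ensembl gene with featureCounts 1.5.0; the strand setting is not given in the sources used here. Symbols, positions and exon lengths came from GENCODE M21 for 52489 of the 52636 genes. Counts were scaled by TMM, filtered with filterByExpr and tested with edgeR 4.0.16 (R 4.3.3; robust quasi-likelihood fit, Tnfaip2-/- against WT, Benjamini-Hochberg adjustment over 17849 genes). DESeq2 1.42.0 and other settings were alternatives. CPM used TMM-scaled library sizes; floors and counting intervals cover counting error only. Named genes were all members, the other network members and, of each list, up to 3 called genes with the largest rise and up to 3 with the largest fall whose groups did not overlap; others named in lists were chosen after their values were seen. Members and lists were chosen with earlier results of these data known. 1 metabolic gene is counted in its list but not reported here by name. Promoters came from RefSeq (GRCm38.p6). Replicate pairs of a genotype differed by more than sampling noise (variance ratios 1.41 to 2.15). No known second run of a library was there for comparison, so these ratios do not show how the replicates were made.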

Additional observations from a re-analysis of the deposited data

How the results depend on the processing

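Of 140 alternative values of the 10 members, 137 kept their direction and their side of the threshold and none reversed. Max (-0.38) and Mxd4 (0.29) were not called against a fold of 1.5, and Mnt was called without WT replicate 3 (log2 changes -0.12 to -0.046 when each replicate was left out). The signs of 2 genes near 0 turned. Sin3a was at -0.0042 without the filter and between -0.0057 and 0.030 when each replicate was left out. Fbxw7 was at -0.0017 with RLE scaling, -0.018 without the filter, -0.00087 with a replicate block, -0.0081 with DESeq2 and between -0.070 and 0.077 when each replicate was left out. With a fold of 1.5 as the null, by construction a stricter test, 2798 genes were called, 1615 higher and 1183 lower. Under it 0 members and 0 other network members were called higher. Called higher and lower were 0 and 1 coactivators, 1 and 0 corepressors, 0 and 0 genes of the MGA complex, 1 and 0 of MYC turnover, 0 and 0 of ribosome biogenesis, 2 and 6 metabolic, 0 and 4 cell cycle targets and 0 and 0 proliferation genes. It also left 6 germline genes higher and 0 lower, 1 repressed target lower, 0 MLX targets higher, 1 pluripotency marker higher and 3 lower, 3 mesoderm markers lower and 0 endoderm and 0 neural markers higher. Without the filter on low counts 1 coactivator was higher, with library size as the only scaling 3 corepressors were lower, and with DESeq2 0 endoderm markers were higher; the cause was not tested. When each replicate was left out, 1 to 2 other network members were lower, 1 to 2 coactivators higher and 0 to 1 endoderm markers higher. With the longest transcript as gene length, WT and Tnfaip2-/- EBs had 92.8 and 53.1 CPM per kb of the 3 Myc genes and 34.5 and 31.2 of the repressing partners. Shares were then 10.7% and 7.65% for Myc and 74.6% and 83.2% for Mycn, that of Mycl was 9.19% in Tnfaip2-/- EBs, and the ratio to Max was 1.87 and 1.39. With a replicate block, 11841 genes were called in place of 12084, and of the named genes only Hk2 lost its call. Same-numbered samples did not deviate together (correlations -0.0218, -0.0252 and -0.0324). These values do not show whether same-numbered samples were grown or prepared together. Genes with few counts, such as Cdkn2b, Tex101, Tbx6 and Tnfaip2, are limited by depth.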
